A study of Mus musculus with 12 samples.

Results

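Livers of mice fed a high-fat diet (HFD) were compared after ischemia-reperfusion injury (IRI) and after a sham operation, across all genes measured. The comparison used 6 of the 12 libraries of the study, 3 HFD-IRI and 3 HFD-Sham, which were taken by the treatment given for each sample. All mice were labelled as wild type, and all 6 of these ate the HFD for 4 months, so both groups had the diet that the study uses to make the liver steatotic. In HFD-IRI mice the vessels feeding the left and middle parts of the liver were tied for 1 h and the liver was taken after 6 h of reperfusion, while HFD-Sham mice had the operation without the tie. The other 6 libraries came from mice on a normal diet (ND), 3 ND-IRI and 3 ND-Sham, treated in the same way. They enter here where the effects on the 2 diets were set against each other. All 12 libraries were also fitted together, so the ND libraries enter the filter and the estimate of spread behind the HFD p-values. Neither the diet's composition, the strain, sex and age of the mice nor the lobe sampled is given in the sources used here. Nothing in the labels says that the 3 livers of a group came from separate mice, so each p-value covers only the spread of these samples, and that spread may be technical.

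When inflow to the liver is stopped, hepatocytes run short of oxygen and ATP, and when blood returns a burst of oxidants and proteins released by dying cells set off an innate inflammatory response. Resident macrophages and endothelial cells then make cytokines and chemokines, neutrophils enter the sinusoids, and hepatocytes switch on heat shock, antioxidant and acute phase genes through transcription factors such as HSF1, NRF2, NF-kB and STAT3. Fat-laden livers are known to withstand this injury less well than lean ones, which is why steatotic donor livers are a concern in transplantation.

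Poly(A) RNA of whole liver was sequenced, and the deposited values were TPM, transcript abundances that are scaled for gene length and add up to the same total in every library. TPM keep no record of the number of reads, so the depth is unknown and counting errors cannot be stated. Between 18935 and 19917 genes were above 0 TPM in each of the 6 HFD libraries. The tissue label was checked with 8 hepatocyte markers, whose sum was 87520 to 100400 TPM in HFD-IRI livers and 92020 to 105400 TPM in HFD-Sham livers, and none of the 8 passed the test between the groups. In a principal component analysis of the 6 libraries the first component, 75.97% of the variance, separated the groups, with scores of 44.38 to 54.47 in HFD-IRI and -50.86 to -45.41 in HFD-Sham. On the second component, 9.064% of the variance, HFD-IRI 3 scored 32.66 and HFD-IRI 2 scored -22.61, against -5.465 to 5.189 in HFD-Sham. Pairwise correlations over tested genes were 0.9732 and 0.9798 for the pairs with HFD-IRI 3, 0.9861 between HFD-IRI 1 and 2, and 0.9829 to 0.9843 among HFD-Sham livers, so HFD-IRI 3 was the library that stood off.

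Of 13364 genes tested, 6138 differed between HFD-IRI and HFD-Sham livers, 3213 of them higher (24.0% of the tested genes) and 2925 lower (21.9%). Which direction had more calls depended on the processing: quantile normalization gave 3160 higher and 3844 lower, sample weights 4179 and 4356, leaving out HFD-IRI 2 gave 2435 and 2533, and leaving out HFD-Sham 3 gave 2557 and 2674. The test was limma on log2(TPM + 1), two-sided, with Benjamini-Hochberg adjustment over all tested genes, with calls made at an adjusted p under 0.05. Fold changes are HFD-IRI over HFD-Sham on that log2 scale, which understates the change of genes near 0 TPM. For any 1 gene, the exact permutation of 3 against 3 libraries has a smallest p of 0.1. Of the 13364 tested genes, 4129 had every HFD-IRI library above every HFD-Sham library, and 3803 had every one below. Lack of overlap, given for many genes below, was therefore common and does not set a gene apart. In bulk tissue, fewer cells of a type and less RNA per cell cannot be told apart, and this touches every result that follows.

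The rises were larger than the falls. Among called genes, 1458 rose and 869 fell by at least 1 on the log2 scale, 330 rose and 72 fell by at least 2, and 84 rose and 8 fell by at least 3. The shares differed with level. Of the 5384 genes with a mean of 10 to 100 TPM, 28.5% were higher and 23.5% lower, whereas of the 1004 genes with a mean of 100 to 1000 TPM, 21.2% were higher and 34.9% lower. The median change over all tested genes was 0.0124. In 34 genes the HFD-Sham mean was under 0.5 TPM and the HFD-IRI mean at least 5 TPM, among them the growth factor gene Fgf23, the neutrophil collagenase gene Mmp8, the transcription factor gene Fosl1, the lactate exporter gene Slc16a3, the decoy receptor gene Il1r2, the chemokine receptor gene Cxcr2 and the ligand gene Tnfsf9.

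**Figure D1:**
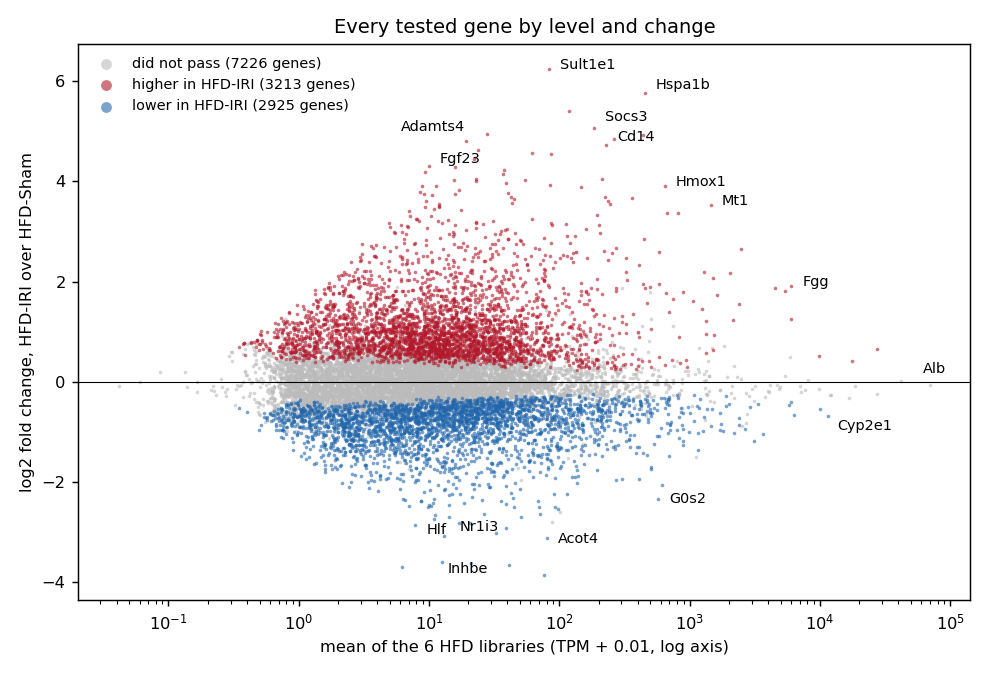
Each point is 1 of the 13364 tested genes, with its mean over the 6 HFD libraries on a log axis (TPM + 0.01) and its log2 fold change, HFD-IRI over HFD-Sham, on the log2(TPM + 1) scale. The 3213 genes higher in HFD-IRI livers reach further from 0 than the 2925 lower genes do.

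The gene furthest up was Sult1e1, an estrogen sulfotransferase. It had 126, 233 and 139 TPM in HFD-IRI livers, against 1.11, 1.03 and 1.26 TPM in HFD-Sham livers (log2 fold change 6.24, SE 0.79, adjusted p = 8.91e-05). Socs3, the feedback inhibitor of interleukin 6 signalling, had 319, 353 and 414 TPM in the HFD-IRI livers and 11.1, 12.1 and 7.00 TPM in the HFD-Sham livers (log2 fold change 5.06, SE 0.31, adjusted p = 1.13e-06). Adamts4, a metalloprotease that cuts proteoglycans, had 49.2, 47.3 and 69.1 TPM in HFD-IRI livers, against 0.72, 1.11 and 0.61 TPM in HFD-Sham livers. The groups did not overlap for any of these 3 genes, and in HFD-Sham livers both Sult1e1 and Adamts4 were near 1 TPM. Cd14, the co-receptor for lipopolysaccharide, had 545, 479 and 293 TPM in the HFD-IRI livers and 12, 31.1 and 8.98 TPM in the HFD-Sham livers. Ch25h, the enzyme that makes 25-hydroxycholesterol, had 56.6, 47.9 and 35 TPM in HFD-IRI livers, against 1.07, 1.28 and 0.45 TPM in HFD-Sham livers. Fgf23, a phosphate-regulating hormone made mainly by bone, had 21.6, 17.1 and 21.1 TPM in the HFD-IRI livers and 0.060, 0.11 and 0 TPM in the HFD-Sham livers. For these 3 genes too every HFD-IRI liver was above every HFD-Sham liver. The largest rises and falls named here were taken only from called genes without overlap, so their separation was set by that choice.

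At the other end, Inhbe, which encodes the activin E subunit secreted by hepatocytes, had 4.64, 4.38 and 5.98 TPM in HFD-IRI livers, against 84.6, 93 and 52.7 TPM in HFD-Sham livers (log2 fold change -3.66, SE 0.40, adjusted p = 2.8e-05). Acot4, a peroxisomal thioesterase for dicarboxylic acyl-CoAs, had 13.5, 12.5 and 22.6 TPM in the HFD-IRI livers and 125, 154 and 154 TPM in the HFD-Sham livers (log2 fold change -3.12, SE 0.18, adjusted p = 9.63e-07). Tlr12, a Toll-like receptor of mice, had 2.28, 1.37 and 1.85 TPM in HFD-IRI livers, against 22.7, 35 and 14.7 TPM in HFD-Sham livers. Each HFD-IRI liver was below each HFD-Sham liver in all 3. Hlf, a transcription factor of the circadian output, had 4.50, 3.08 and 5.53 TPM in the HFD-IRI livers and 42.9, 30.4 and 36.6 TPM in the HFD-Sham livers. Nr1i3, the nuclear receptor CAR, had 10.8, 9.68 and 17.9 TPM in HFD-IRI livers, against 114, 61.6 and 89.2 TPM in HFD-Sham livers. Upp2, a uridine phosphorylase of liver, had 12.1, 17.4 and 25.6 TPM in the HFD-IRI livers and 141, 61.3 and 171 TPM in the HFD-Sham livers. Hjv, hemojuvelin, a co-receptor that drives hepcidin, had 34.3, 16.3 and 36.9 TPM in HFD-IRI livers, against 159, 194 and 143 TPM in HFD-Sham livers. Again no HFD-IRI value reached the HFD-Sham range, as the choice of these genes required. The other large falls were those of Dlec1, Glt1d1, Ugt1a6a, Hykk, Usp2, Osbpl3, Hsd3b2 and Igkj3, from -3.69 in Igkj3 to -2.63 in Hsd3b2. Igkj3, a segment of the immunoglobulin light chain, was listed at 0 in every HFD-IRI liver and lost its call when HFD-Sham 1 was left out (-3.43, adjusted p = 0.0535).

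**Figure D2:**
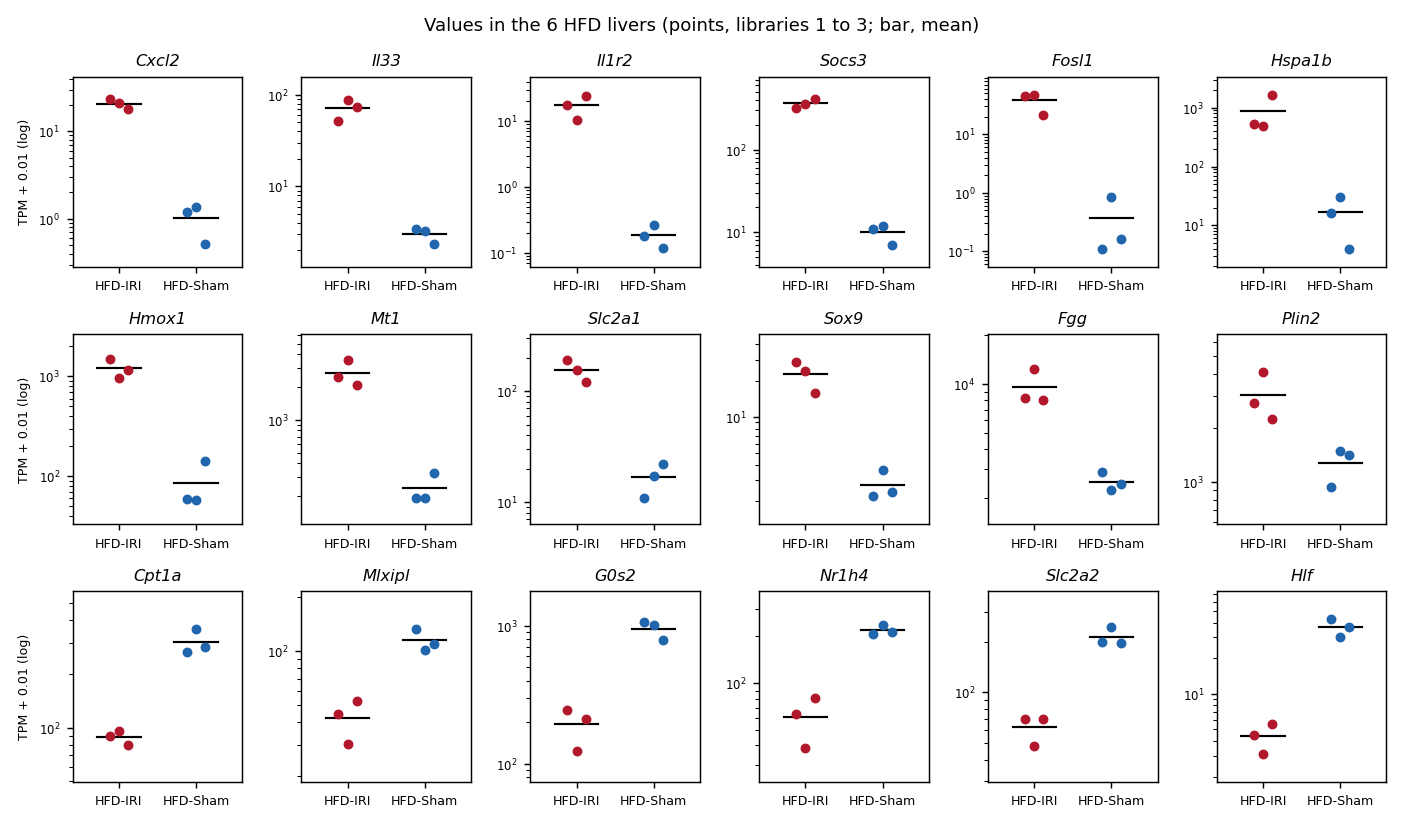
TPM + 0.01 of 18 named genes in each of the 6 HFD livers on log axes, HFD-IRI to the left of HFD-Sham, with one point per library, 1 to 3 from left to right, and a bar at the group mean. In all 18 the HFD-IRI points lie on one side of the HFD-Sham points, above them in the first 12 genes and below them in the last 6.

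The genes were also read in 50 lists by function. For each list the number of tested members called higher and lower is given, to be read against the 24.0% and 21.9% over all tested genes, with the median log2 fold change against 0.0124. The members share cells and regulators, so these counts are descriptions and no test of a list was made.

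**Figure D3:**
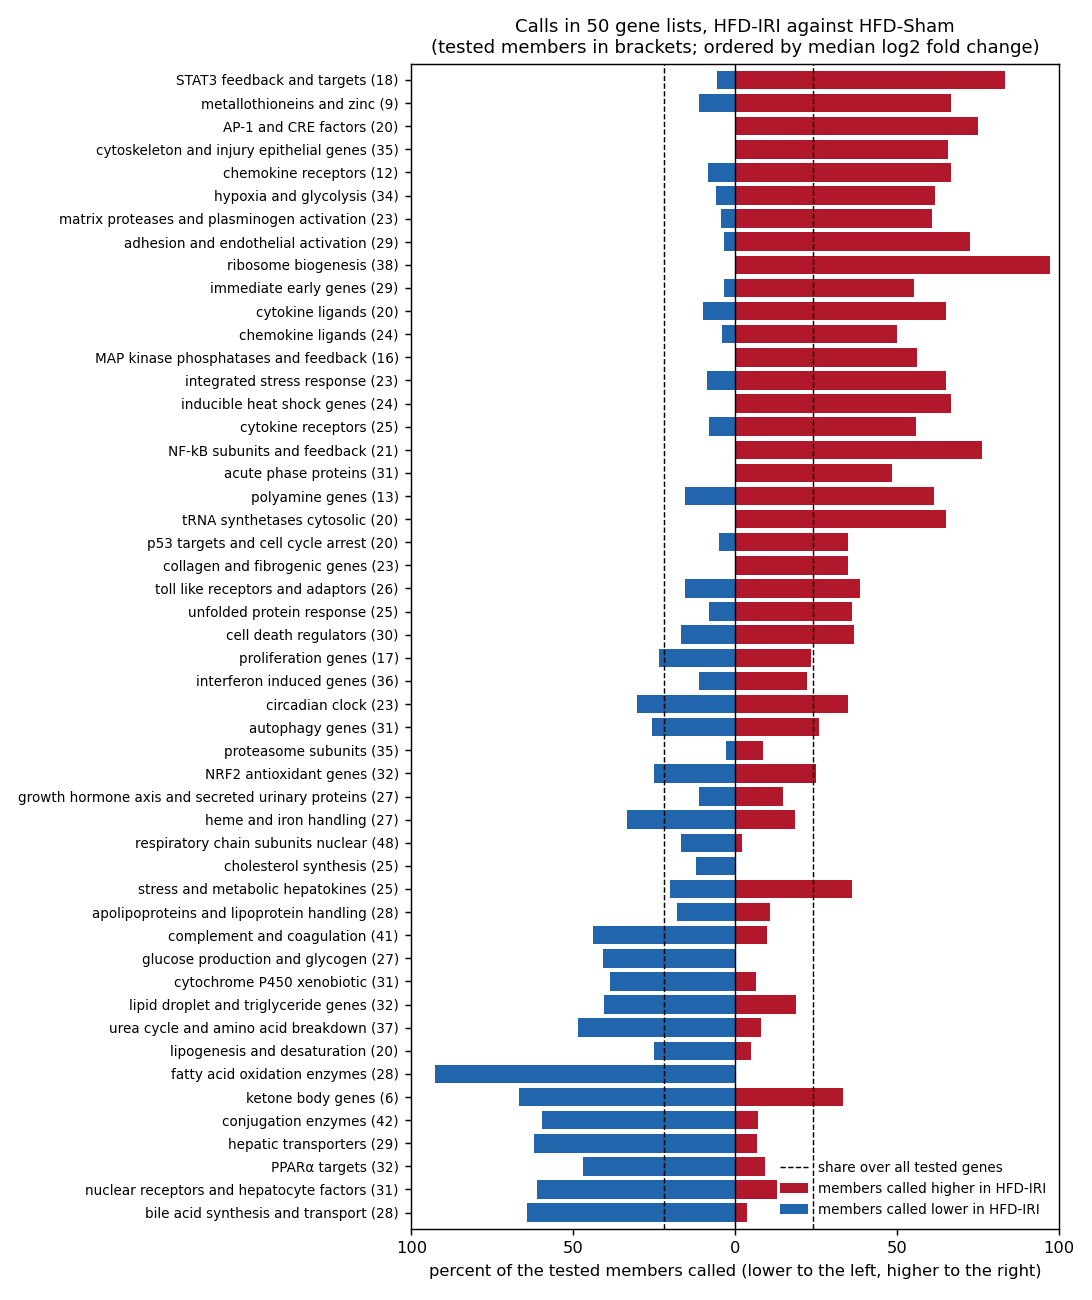
Share of the tested members of each of the 50 lists called higher (to the right) or lower (to the left) in HFD-IRI livers, in percent, with the shares over all 13364 tested genes (24.0% higher and 21.9% lower) as dashed lines. The lists run down the page by their median log2 fold change; the bar of ribosome biogenesis (37 of 38 higher) extends furthest to the right and that of fatty acid oxidation (26 of 28 lower) furthest to the left.

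Chemokine ligands, which draw leukocytes into tissue, were among the inflammatory genes that rose. Of 24 tested ligands 12 were higher and 1 lower (median 0.97). Cxcl2, a neutrophil attractant, had 23.2, 21.2 and 17.8 TPM in the HFD-IRI livers and 1.17, 1.34 and 0.50 TPM in the HFD-Sham livers. Cxcl1, its close relative, had 249, 279 and 143 TPM in HFD-IRI livers, against 87.3, 30.8 and 15.8 TPM in HFD-Sham livers. Ccl7, which attracts monocytes, had 31.7, 23.3 and 70.4 TPM in the HFD-IRI livers and 6.33, 4.69 and 0.78 TPM in the HFD-Sham livers. None of the 3 overlapped between the groups, and Cxcl2 was near 1 TPM in HFD-Sham livers. Cxcl10, an interferon-induced attractant of T cells, rose by 2.14, and Cxcl9 by 1.13. The single ligand that fell was Cxcl12, which holds CXCR4-bearing cells in place, with 43.7, 34.8 and 32.3 TPM in HFD-IRI livers, against 134, 89.9 and 96.9 TPM in HFD-Sham livers (log2 fold change -1.50, SE 0.21, adjusted p = 0.000183).

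The proximal promoters of Cxcl1 and Cxcl2 are shown because NF-kB sites are the known route to their induction. The letters are the last 120 bases before the transcription start of the RefSeq gene in build GRCm38.p6, whereas the expression table was made on GRCm39 per the submitters' processing notes, so these positions serve only to place the sequence. Capitals mark matches to GGNNTTTCC on either strand.
Cxcl1: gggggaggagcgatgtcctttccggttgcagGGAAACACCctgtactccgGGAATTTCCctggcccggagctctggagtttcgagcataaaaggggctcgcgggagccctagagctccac
Cxcl2: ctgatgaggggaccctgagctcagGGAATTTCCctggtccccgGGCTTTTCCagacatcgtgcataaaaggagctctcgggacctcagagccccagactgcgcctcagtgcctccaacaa
Cxcl1 lies at chr5:90891125-90891244, plus strand, and Cxcl2 at chr5:90903779-90903898, plus strand. Each window held a pair of matches close together, beginning 89 and 70 bases before the start in Cxcl1 and 96 and 77 bases before it in Cxcl2. Over the 250 bases before the start, 6 of 19 windows of tested chemokine ligands held the motif (31.6%), and 34.8% of those of the NF-kB subunit and feedback list did, against 5.05% of the windows of all tested genes and 4.93% of all 32851 windows. Of the genes of these lists holding the motif, Ccl9 (0.20), Cyld (0.065) and Tnfaip2 (0.14) did not pass, and the others were higher. A match of letters is a description and not a binding site.

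Of 12 chemokine receptors 8 were higher and 1 lower. Ccr1, a receptor on neutrophils and monocytes, had 9.30, 8.21 and 18.7 TPM in the HFD-IRI livers and 0.82, 0.80 and 0.55 TPM in the HFD-Sham livers. Cxcr2, the neutrophil receptor for Cxcl1 and Cxcl2, had 5.15, 4.63 and 16.2 TPM in HFD-IRI livers, against 0.38, 0.39 and 0.17 TPM in HFD-Sham livers. Both were highest in HFD-IRI 3, the library that was also highest for the neutrophil markers S100a8, S100a9 and Retnlg given further on. The scavenging receptors Ackr2 and Ackr1 rose by 2.39 and 1.71. Cx3cr1, the receptor of patrolling monocytes and of some resident macrophages, had 0.30, 0.20 and 0.13 TPM in the HFD-IRI livers and 1.99, 3.09 and 0.86 TPM in the HFD-Sham livers (log2 fold change -1.23, SE 0.29, adjusted p = 0.00446), the one receptor that fell.

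Among 20 cytokine ligands 13 were higher and 2 lower. Il33, an alarmin held in the nucleus until cells break, had 52, 88 and 73 TPM in HFD-IRI livers, against 3.44, 3.25 and 2.35 TPM in HFD-Sham livers (log2 fold change 4.14, SE 0.45, adjusted p = 2.74e-05). Il1rn, the natural antagonist of the interleukin 1 receptor, had 39.3, 48.7 and 69.1 TPM in the HFD-IRI livers and 10.3, 8.48 and 6.37 TPM in the HFD-Sham livers. Lif, a cytokine of the interleukin 6 family, had 2.66, 2.62 and 2.31 TPM in HFD-IRI livers, against 0.12, 0.61 and 0.050 TPM in HFD-Sham livers. Tnfsf9, the ligand of 4-1BB, had 5.93, 3.12 and 8.07 TPM in the HFD-IRI livers and 0.33, 0.080 and 0 TPM in the HFD-Sham livers. All 4 separated the groups without overlap, Lif at levels of a few TPM. Tnfsf10, which encodes the death ligand TRAIL, fell to 0.55 ± 0.165 against 2.88 ± 0.986 TPM (mean ± SD, HFD-IRI against HFD-Sham, n = 3 each).

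Of the cytokine receptors, 14 of 25 were higher and 2 lower. Il1r2, the decoy receptor for interleukin 1 and a marker of neutrophils, had 17.5, 10.6 and 24.3 TPM in HFD-IRI livers, against 0.17, 0.26 and 0.11 TPM in HFD-Sham livers. Il4ra, shared by the interleukin 4 and 13 receptors, had 104, 116 and 90.1 TPM in the HFD-IRI livers and 16.5, 18.6 and 16.6 TPM in the HFD-Sham livers. Osmr, the oncostatin M receptor, had 12, 13 and 11.1 TPM in HFD-IRI livers, against 1.46, 1.68 and 1.10 TPM in HFD-Sham livers. Il17ra had 37.7, 40.9 and 41 TPM in the HFD-IRI livers and 6.02, 5.70 and 4.62 TPM in the HFD-Sham livers. The groups did not overlap in these 4, and Il4ra was the most abundant of them in HFD-IRI livers. Il15ra, which presents interleukin 15, fell by 1.34 on the log2 scale (adjusted p = 0.00222).

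The STAT3 list of feedback regulators and targets counted 15 of 18 higher and 1 lower (median 1.71). After Socs3, the phosphatase gene Ptpn2, which switches off JAK-STAT signalling, had 82.9, 73.5 and 89.7 TPM in HFD-IRI livers, against 11.3, 13.3 and 9.71 TPM in HFD-Sham livers. Bcl3, an atypical IkB protein that STAT3 and NF-kB both induce, had 102, 97.1 and 87.7 TPM in the HFD-IRI livers and 24.5, 17.2 and 13.4 TPM in the HFD-Sham livers. Cish, another SOCS family member, had 12.7, 15.9 and 20 TPM in HFD-IRI livers, against 3.69, 3.83 and 1.30 TPM in HFD-Sham livers. Stat3 itself had 106, 124 and 105 TPM in the HFD-IRI livers and 34.4, 35.2 and 34.3 TPM in the HFD-Sham livers. None of them overlapped.

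NF-kB subunits and feedback genes were higher in 16 of 21 and lower in 0 (median 0.88). Tnip2, an inhibitor of NF-kB, had 36.2, 34.5 and 45.5 TPM in HFD-IRI livers, against 10.3, 8.79 and 8.08 TPM in HFD-Sham livers, Nfkb1, the p105 precursor, rose by 1.24, and Nfkbib, an IkB protein, by 1.23. Of 26 Toll-like receptors and adaptors 10 rose and 4 fell. The rising ones included the lipopolysaccharide partners of Toll-like receptor 4: beside Cd14, Ly96, which encodes MD-2, had 25.6, 35.9 and 35.3 TPM in the HFD-IRI livers and 7.03, 6.97 and 5.82 TPM in the HFD-Sham livers, and the adaptor gene Tirap had 22.1, 41.5 and 16.3 TPM in HFD-IRI livers, against 5.53, 4.65 and 4.61 TPM in HFD-Sham livers. Falling with Tlr12 was Tlr5, the flagellin receptor, which had 3.20, 2.46 and 1.86 TPM in the HFD-IRI livers and 16.8, 18.1 and 20 TPM in the HFD-Sham livers. In the interferon-induced list 8 of 36 were higher and 4 lower, shares under those of all genes. Isg20 and Gbp5 rose by 1.29 and 1.25, and Usp18, which damps interferon signalling, fell by 1.57 on the log2 scale. The interferon count of rises was 4 without HFD-IRI 3 or without HFD-Sham 2 and 5 without HFD-Sham 3.

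The AP-1 and CRE factors rose unevenly. Of 20 members 15 were higher and 0 lower, and 9 were higher when HFD-Sham 3 was left out. Fosl1, a Fos relative, had 45.2, 47.4 and 21.4 TPM in HFD-IRI livers, against 0.10, 0.83 and 0.15 TPM in HFD-Sham livers (log2 fold change 4.80, SE 0.43, adjusted p = 1.03e-05). Crem, a cAMP-responsive factor, had 59.5, 45.1 and 70.4 TPM in the HFD-IRI livers and 7.10, 9.75 and 10.3 TPM in the HFD-Sham livers. Mafk, a small Maf partner, had 104, 115 and 146 TPM in HFD-IRI livers, against 22.2, 42.6 and 25.2 TPM in HFD-Sham livers. Nfil3, a repressor of the D-box that also belongs to the clock list, had 111, 99.1 and 169 TPM in the HFD-IRI livers and 23.6, 26.2 and 25.4 TPM in the HFD-Sham livers. Each was higher in every HFD-IRI liver than in any HFD-Sham liver. Jun, the classic member, did not pass: it had 446, 331 and 835 TPM in HFD-IRI livers, against 317, 273 and 189 TPM in HFD-Sham livers (log2 fold change 0.97, SE 0.55, adjusted p = 0.173). Jund did not pass either (0.85). Both passed without ND-Sham 1 (adjusted p = 0.0235 and 0.0135) and with only the HFD groups fitted (adjusted p = 0.0416 and 0.0128). Of 29 immediate early genes 16 were higher and 1 lower. Ier3, a stress gene with effects on cell survival, had 104, 119.5 and 87.9 TPM in the HFD-IRI livers and 6.54, 7.25 and 3.14 TPM in the HFD-Sham livers, and Ier5 had 61.6, 48.1 and 78.8 TPM in HFD-IRI livers, against 6.87, 10.9 and 4.68 TPM in HFD-Sham livers. Btg1 rose by 1.76 and Srf, the serum response factor, by 1.00, whereas Btg2 with a log2 fold change of 1.11 did not pass. Btg2 passed with only the HFD groups fitted (adjusted p = 0.00714), without ND-Sham 1 (0.0412), without both first ND libraries (0.00339) and with sample weights (0.0292). MAP kinase feedback genes were higher in 9 of 16 and lower in 0. The phosphatase genes Dusp14 and Dusp5 led them: Dusp14 had 21.9, 12.2 and 21.4 TPM in the HFD-IRI livers and 0.65, 0.61 and 0.38 TPM in the HFD-Sham livers, and Dusp5 had 99.3, 84.5 and 60.6 TPM in HFD-IRI livers, against 5.77, 7.07 and 4.81 TPM in HFD-Sham livers. Spry2 and Spred1, inhibitors of Ras signalling, rose by 2.04 and 1.75, and Dusp1 and Dusp6, at 0.59 and 0.66, did not pass. Without ND-Sham 1 they did (adjusted p = 0.0239 and 0.0365), as with only the HFD groups fitted (adjusted p = 0.0351 and 0.00884). Dusp1 also passed without HFD-Sham 2 (adjusted p = 0.0485).

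Heat shock genes, chaperones that refold or hold damaged proteins, had some of the largest rises. Of 24 tested 16 were higher and 0 lower (median 0.92). Hspa1b, an inducible HSP70, had 529, 489 and 1665 TPM in the HFD-IRI livers and 16.4, 30 and 3.95 TPM in the HFD-Sham livers (log2 fold change 5.77, SE 0.76, adjusted p = 0.000115). Hspa1a, the near-identical copy, had 163, 116 and 414 TPM in HFD-IRI livers, against 5.09, 12.2 and 0.32 TPM in HFD-Sham livers. Reads of the pair can be split between them, so the single values are uncertain. Dnajb1, the HSP40 that works with HSP70, had 316, 272 and 629.5 TPM in the HFD-IRI livers and 25.2, 29.7 and 13.8 TPM in the HFD-Sham livers. Hsph1, its nucleotide exchange factor, had 147, 180.0 and 514 TPM in HFD-IRI livers, against 14.3, 13.4 and 18.3 TPM in HFD-Sham livers. Hspb1, the small heat shock protein HSP27, had 682, 482 and 855 TPM in the HFD-IRI livers and 39.5, 68.9 and 46.8 TPM in the HFD-Sham livers. Hsp90aa1, the inducible HSP90, had 1045, 979 and 1637 TPM in HFD-IRI livers, against 97.1, 118 and 129.8 TPM in HFD-Sham livers (log2 fold change 3.37, SE 0.23, adjusted p = 2.46e-06). No value of one group reached the other in these 6 genes. Dnaja1 at 0.95 did not pass, but did without HFD-IRI 1, HFD-IRI 2, ND-IRI 1 or ND-IRI 2 (adjusted p = 0.0265 to 0.0423). It also passed with only the HFD groups fitted (adjusted p = 0.0485).

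Promoters of 3 of these genes are shown with the inverted repeat that HSF1 is known to read. Capitals mark GAANNTTC or TTCNNGAA, and each line again gives the last 120 bases before the start in RefSeq build GRCm38.p6.
Hspa1b: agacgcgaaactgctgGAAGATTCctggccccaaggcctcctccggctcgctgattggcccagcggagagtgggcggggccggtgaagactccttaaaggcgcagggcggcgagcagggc
Hsph1: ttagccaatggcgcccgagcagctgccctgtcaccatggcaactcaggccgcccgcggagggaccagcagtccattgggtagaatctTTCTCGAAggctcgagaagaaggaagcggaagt
Hspb1: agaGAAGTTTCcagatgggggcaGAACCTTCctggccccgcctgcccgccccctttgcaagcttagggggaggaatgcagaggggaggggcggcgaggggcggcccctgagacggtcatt
Hspa1b lies at chr17:34959239-34959358, minus strand, Hsph1 at chr5:149636337-149636456, minus strand, and Hspb1 at chr5:135887799-135887918, plus strand. Among windows of 250 bases the motif was found in 10 of the 25 windows of tested heat shock genes (40.0%), which belong to 19 genes, against 10.3% of the windows of all tested genes and 12.8% of all windows. Hspb1 held a pair of matches, beginning 117 and 97 bases before the start. Of the tested heat shock genes holding the motif, Dnajb4 (0.43), Dnaja1 (0.95) and Fkbp4 (-0.27) did not pass, and the others were higher. The pattern is short and both spellings count, so the share over all windows is high.

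The endoplasmic reticulum response was partial. Of 25 genes 9 rose and 2 fell. Xbp1, the factor that IRE1 activates by splicing, had 566, 704 and 346 TPM in the HFD-IRI livers and 133, 132 and 112 TPM in the HFD-Sham livers. Hspa5, the chaperone BiP, had 1257, 1505 and 1378 TPM in HFD-IRI livers, against 383, 452 and 357 TPM in HFD-Sham livers. Dnajb9 had 238, 278 and 258 TPM in the HFD-IRI livers and 76, 90.1 and 80.5 TPM in the HFD-Sham livers. These 3 did not overlap between the groups, but Herpud1, a degradation factor of the same compartment, had 203, 222 and 269 TPM in HFD-IRI livers, against 476, 529.9 and 741 TPM in HFD-Sham livers and Sel1l fell by 0.87 on the log2 scale. In the integrated stress response 15 of 23 rose and 2 fell. Atf4, its central factor, had 231, 240.3 and 309 TPM in the HFD-IRI livers and 94.8, 109 and 78.1 TPM in the HFD-Sham livers. Mthfd2, a folate enzyme of mitochondria, had 5.63, 7.80 and 7.25 TPM in HFD-IRI livers, against 1.24, 1.64 and 0.66 TPM in HFD-Sham livers. Slc3a2, the heavy chain of amino acid exchangers, had 96.4, 115 and 106 TPM in the HFD-IRI livers and 30, 33.7 and 31.9 TPM in the HFD-Sham livers. These too were separate between the groups. Shmt2, the serine enzyme that feeds Mthfd2, fell to 106 ± 14.2 against 168 ± 0.811 TPM. Gdf15, a stress hormone that the same response induces, did not pass, at -0.30.

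The NRF2 list held 8 of 32 higher and 8 lower, shares close to those of all genes, and 5 were higher without HFD-IRI 1, HFD-IRI 2 or HFD-Sham 3. Srxn1, sulfiredoxin, had 1498, 1861 and 1109 TPM in HFD-IRI livers, against 107, 199 and 129 TPM in HFD-Sham livers (log2 fold change 3.37, SE 0.33, adjusted p = 1.58e-05). Gclc, the catalytic subunit for glutathione synthesis, had 2055, 2959.8 and 1374 TPM in the HFD-IRI livers and 392, 459 and 486 TPM in the HFD-Sham livers. Txnrd1, thioredoxin reductase, had 319.9, 424 and 185 TPM in HFD-IRI livers, against 66.8, 88.4 and 87.4 TPM in HFD-Sham livers. Sqstm1, the adaptor p62, had 1533, 1655 and 1635 TPM in the HFD-IRI livers and 475, 579 and 518 TPM in the HFD-Sham livers. Those 4 were higher in all HFD-IRI livers than in any HFD-Sham liver. Cat, catalase, had 1835, 1516 and 1741 TPM in HFD-IRI livers, against 3117, 3004 and 3080.1 TPM in HFD-Sham livers, and Ephx1, an epoxide hydrolase, fell to 504 ± 61.3 against 912 ± 166 TPM. The antioxidant element TGACNNNGC, on either strand, stands in the Txnrd1 promoter, in capitals within the last 120 bases before the start at chr10:82859086-82859205, plus strand (GRCm38.p6).
Txnrd1: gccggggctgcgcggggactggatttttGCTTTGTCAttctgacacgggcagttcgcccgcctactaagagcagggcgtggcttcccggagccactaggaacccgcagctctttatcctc
The motif was in 23.7% of the windows of this list, 11.8% of those of all tested genes and 10.2% of all windows. Genes of this list holding it went both ways: Nfe2l2 was higher (0.61) and Gclm lower (-0.46).

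Hmox1, heme oxygenase 1, had 1508, 967 and 1154 TPM in the HFD-IRI livers and 59.4, 57.9 and 142 TPM in the HFD-Sham livers (log2 fold change 3.90, SE 0.42, adjusted p = 2.96e-05). The rest of the heme and iron list was mixed: 5 of 27 rose and 9 fell. Slc39a14, which imports zinc and iron, had 513, 636 and 261 TPM in HFD-IRI livers, against 54.2, 67.5 and 88.6 TPM in HFD-Sham livers. Alas1, the first enzyme of heme synthesis in liver, had 171, 204 and 223 TPM in the HFD-IRI livers and 465, 464 and 551 TPM in the HFD-Sham livers, and Fech, its last, fell to 21.4 ± 2.22 against 37 ± 2.05 TPM. Metallothionein and zinc genes were higher in 6 of 9 and lower in 1. Mt1 had 2491, 3519.9 and 2076 TPM in HFD-IRI livers, against 190.1, 192 and 325 TPM in HFD-Sham livers, and Mt2, close to it in sequence, had 11.2, 15.8 and 8.53 TPM in the HFD-IRI livers and 0.36, 0.50 and 0.89 TPM in the HFD-Sham livers. Reads may be shared between them. The zinc importer Slc39a10 had 12.1, 28.7 and 11.7 TPM in HFD-IRI livers, against 1.66, 1.85 and 1.22 TPM in HFD-Sham livers. All 3 were clear of the HFD-Sham range.

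Of 34 hypoxia and glycolysis genes 21 were higher and 2 lower. Slc2a1, the glucose carrier GLUT1, had 190.1, 157 and 121 TPM in the HFD-IRI livers and 10.9, 17.1 and 22.1 TPM in the HFD-Sham livers (log2 fold change 3.18, SE 0.24, adjusted p = 3.18e-06). Slc16a3, the lactate carrier MCT4, had 11.3, 8.14 and 11.4 TPM in HFD-IRI livers, against 0.38, 0.45 and 0.41 TPM in HFD-Sham livers. Ndrg1, a stress gene under HIF1, had 35.3, 33 and 25.8 TPM in the HFD-IRI livers and 3.86, 2.95 and 5.30 TPM in the HFD-Sham livers. Hif1a, the oxygen-sensing factor, had 120.5, 138 and 99 TPM in HFD-IRI livers, against 25.3, 29 and 28.4 TPM in HFD-Sham livers. The groups stayed apart in all 4. Tpi1, a housekeeping step of glycolysis, did not pass, with 337, 301 and 325 TPM in the HFD-IRI livers and 334, 356 and 339 TPM in the HFD-Sham livers.

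Ribosome biogenesis had the largest share of rises of the 50 lists. Of 38 tested members 37 were higher and 0 lower, with a median of 1.06. Wdr12 at 0.52 was the member that did not pass. It did without ND-IRI 1 (adjusted p = 0.0133) and with only the HFD groups fitted (adjusted p = 0.0259). Heatr1, a factor for transcription of ribosomal RNA, had 47.1, 46.6 and 35.5 TPM in HFD-IRI livers, against 6.58, 5.98 and 5.94 TPM in HFD-Sham livers. Nop58, a core protein of box C/D particles, had 25.4, 30.9 and 28.8 TPM in the HFD-IRI livers and 4.09, 5.50 and 5.54 TPM in the HFD-Sham livers. Gnl3, nucleostemin, had 54.3, 52.4 and 50.7 TPM in HFD-IRI livers, against 14, 17.2 and 16.4 TPM in HFD-Sham livers, and Utp4, of the small subunit processome, had 43.1, 45.3 and 38.7 TPM in the HFD-IRI livers and 11.1, 12.2 and 14 TPM in the HFD-Sham livers. The groups were separate in all 4. Cytosolic tRNA synthetases were higher in 13 of 20 and lower in 0, with smaller changes, 0.82 in Sars and 0.80 in Tars. Polyamine genes were higher in 8 of 13 and lower in 2. Odc1, the first enzyme of the pathway, had 272, 236 and 201 TPM in HFD-IRI livers, against 53.9, 60.9 and 62.9 TPM in HFD-Sham livers. Smox, spermine oxidase, had 42.1, 42.4 and 27.4 TPM in the HFD-IRI livers and 5.51, 7.64 and 4.26 TPM in the HFD-Sham livers. Sat1, the acetyltransferase that sends polyamines to breakdown, had 739.8, 707 and 635 TPM in HFD-IRI livers, against 168, 243 and 142 TPM in HFD-Sham livers. No HFD-Sham liver reached the HFD-IRI range in these 3 genes, while Paox, another enzyme of breakdown, fell by 0.94 on the log2 scale.

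The endothelial and adhesion list was higher in 21 of 29 and lower in 1 (median 1.10). Selp, P-selectin, which tethers leukocytes, had 21.7, 14.7 and 32.5 TPM in the HFD-IRI livers and 1.15, 1.01 and 0.92 TPM in the HFD-Sham livers. Thbd, thrombomodulin, had 77.6, 78.4 and 71.8 TPM in HFD-IRI livers, against 3.63, 3.63 and 7.45 TPM in HFD-Sham livers. Procr, the endothelial protein C receptor, had 27.8, 21.7 and 41.6 TPM in the HFD-IRI livers and 1.46, 1.51 and 0.82 TPM in the HFD-Sham livers. Angpt2, which destabilizes vessels, had 9.88, 10.5 and 18.3 TPM in HFD-IRI livers, against 0.66, 0.59 and 0.40 TPM in HFD-Sham livers. In HFD-Sham livers Selp, Procr and Angpt2 were at or under a few TPM, and none of the 4 overlapped. Of the matrix protease and plasminogen list 14 of 23 were higher and 1 lower. Besides Adamts4, Plaur, the urokinase receptor, had 29.2, 29.1 and 25.2 TPM in the HFD-IRI livers and 3.15, 3.25 and 1.67 TPM in the HFD-Sham livers, and Mmp8, a collagenase stored in neutrophils, had 12.3, 10 and 28.1 TPM in HFD-IRI livers, against 0.26, 0.24 and 0.040 TPM in HFD-Sham livers. Fibrogenic genes were higher in 8 of 23 and lower in 0: Tnc, tenascin C, had 10.8, 11 and 11.7 TPM in the HFD-IRI livers and 0.95, 1.89 and 0.78 TPM in the HFD-Sham livers, and Lox, a collagen crosslinker, had 5.75, 5.03 and 3.29 TPM in HFD-IRI livers, against 0.29, 0.76 and 0.15 TPM in HFD-Sham livers. The collagen gene Col3a1 did not pass, at -0.45. Cytoskeleton and injured-epithelium genes were higher in 23 of 35 and lower in 0, among them the tubulin gene Tubb6 (3.14), the tropomyosin genes Tpm4 (2.07) and Tpm3 (1.30) and the vinculin gene Vcl (1.65).

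Cell death regulators were higher in 11 of 30 and lower in 5. Those furthest up were survival genes of the BCL2 family: Bcl2l1, which encodes BCL-XL, had 222, 248 and 139 TPM in the HFD-IRI livers and 21.4, 22.6 and 20.5 TPM in the HFD-Sham livers (log2 fold change 3.14, SE 0.19, adjusted p = 1.15e-06), and Mcl1 had 541, 535 and 519 TPM in HFD-IRI livers, against 127, 129 and 92.5 TPM in HFD-Sham livers. Casp8, the initiator caspase of death receptors, had 109.6, 141 and 83.1 TPM in the HFD-IRI livers and 31.1, 39.8 and 39.1 TPM in the HFD-Sham livers, and Casp4, a caspase that senses lipopolysaccharide inside cells, had 8.49, 5.28 and 8.32 TPM in HFD-IRI livers, against 1.91, 2.24 and 2.00 TPM in HFD-Sham livers. The pore gene Gsdmd went down and had 17.3, 19.8 and 22.3 TPM in the HFD-IRI livers and 37.5, 36.2 and 32.1 TPM in the HFD-Sham livers. All 5 separated the groups. Of 20 p53 targets 7 rose and 1 fell. Cdkn1a, the cell cycle inhibitor p21, had 279, 216 and 186 TPM in HFD-IRI livers, against 10.1, 37.1 and 61.3 TPM in HFD-Sham livers, Mdm2 rose by 0.97, and the death gene Bax with 0.19 did not pass. Of the proliferation genes 4 of 17 were higher and 4 lower, shares near those of all genes: Rrm2, a ribonucleotide reductase subunit, had 19.9, 18.1 and 7.10 TPM in the HFD-IRI livers and 1.45, 2.99 and 3.24 TPM in the HFD-Sham livers, whereas the replication factor gene Mcm10 had 6.66, 3.43 and 10.1 TPM in HFD-IRI livers, against 32.5, 21.7 and 27.9 TPM in HFD-Sham livers. Without HFD-Sham 3 the proliferation genes called higher were 2.

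Of 31 acute phase proteins 15 were higher and 0 lower. When TPM were rescaled without the 50 most abundant genes, 9 were higher. That setting also took such genes, Alb among them, out of the list, so these counts do not cover the same members. Fgg and Fgb, chains of fibrinogen, were among the most abundant: Fgg had 8255, 12488 and 7995 TPM in the HFD-IRI livers and 2889, 2249 and 2426 TPM in the HFD-Sham livers, and Fgb had 6232, 9725 and 5637 TPM in HFD-IRI livers, against 2171, 1662 and 1909 TPM in HFD-Sham livers (log2 fold change 1.88, SE 0.21, adjusted p = 3.23e-05). Serpina3n, a protease inhibitor with close paralogues, had 3136, 5746 and 3939 TPM in the HFD-IRI livers and 678, 709.8 and 586 TPM in the HFD-Sham livers. The HFD-IRI livers were above the HFD-Sham livers in all 3, while Alb, albumin, had 65522, 65207 and 73329 TPM in HFD-IRI livers, against 75279, 62006 and 78168 TPM in HFD-Sham livers and did not pass (adjusted p = 0.752). Trf, transferrin, did not pass either, at -0.27, but did without HFD-Sham 3 (-0.35, adjusted p = 0.0472). The other complement and coagulation genes fell more often, 18 of 41 being lower and 4 higher with the fibrinogen chains among the higher ones. Klkb1, plasma prekallikrein, had 40.6, 32.4 and 36.6 TPM in the HFD-IRI livers and 127, 88.5 and 96.4 TPM in the HFD-Sham livers. F5, coagulation factor V, had 126, 127 and 120.5 TPM in HFD-IRI livers, against 252, 250.2 and 248 TPM in HFD-Sham livers, and Serpind1, heparin cofactor II, had 346, 323 and 375 TPM in the HFD-IRI livers and 658, 556 and 603 TPM in the HFD-Sham livers. These 3 did not overlap. Complement C3 had 2139.8, 2953 and 2622 TPM in HFD-IRI livers, against 3331, 2747 and 3289 TPM in HFD-Sham livers and did not pass.

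Fatty acid oxidation was the list with the largest share of falls: 26 of 28 were lower and 0 higher, with a median of -0.58. Cpt1a, the gate for fatty acids into mitochondria, had 89.4, 95.6 and 80.2 TPM in the HFD-IRI livers and 266, 359 and 284 TPM in the HFD-Sham livers (log2 fold change -1.76, SE 0.14, adjusted p = 4.87e-06). Cpt2, its inner membrane partner, had 109.6, 128 and 106 TPM in HFD-IRI livers, against 232, 241 and 291 TPM in HFD-Sham livers. Acad11, an acyl-CoA dehydrogenase, had 53.6, 54 and 57.5 TPM in the HFD-IRI livers and 122, 137 and 149.8 TPM in the HFD-Sham livers. Pex11a, which multiplies peroxisomes, had 139.5, 181 and 127 TPM in HFD-IRI livers, against 284, 409 and 412 TPM in HFD-Sham livers. HFD-IRI livers were below HFD-Sham livers in each case. The peroxisomal enzyme gene Ehhadh did not pass (-0.77), but did without HFD-Sham 1 (-1.16, adjusted p = 0.0342). Ketone body genes went both ways. Bdh1, the enzyme that makes hydroxybutyrate, had 124, 107 and 117 TPM in the HFD-IRI livers and 268, 307 and 265 TPM in the HFD-Sham livers, while the monocarboxylate carrier Slc16a1 had 138, 122 and 91.3 TPM in HFD-IRI livers, against 35.7, 46.9 and 38.1 TPM in HFD-Sham livers and its relative Slc16a6 had 22.2, 15.9 and 12.1 TPM in the HFD-IRI livers and 3.31, 6.19 and 5.58 TPM in the HFD-Sham livers. Bdh1 was lower and both carriers higher, with no overlap.

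Targets of PPARalpha, the receptor that drives this oxidation, were lower in 15 of 32 and higher in 3. Aldh3a2, a fatty aldehyde dehydrogenase, had 242, 267 and 243 TPM in HFD-IRI livers, against 581, 835 and 673 TPM in HFD-Sham livers, and Acot3, a thioesterase next to Acot4 in function, had 8.59, 9.67 and 16.9 TPM in the HFD-IRI livers and 62.5, 56.4 and 79.2 TPM in the HFD-Sham livers. Angptl4, an inhibitor of lipoprotein lipase, moved the other way, with 674, 794 and 625 TPM in HFD-IRI livers, against 176, 238 and 301 TPM in HFD-Sham livers, and so did Plin2, the coat protein of lipid droplets, with 2767, 4111 and 2237 TPM in the HFD-IRI livers and 942, 1494 and 1409.9 TPM in the HFD-Sham livers. None of these overlapped. No window of the tested fatty acid oxidation or PPARalpha target genes held the DR1 letters GGTCAAAGG, which stood in 0.31% of all windows. At that share lists of this size would seldom hold a match, so its absence does not show that these genes lack a PPARalpha element. Among lipid droplet and triglyceride genes 13 of 32 were lower and 6 higher. G0s2, an inhibitor of the lipase ATGL, had 244, 123 and 212 TPM in HFD-IRI livers, against 1059.9, 1013 and 781 TPM in HFD-Sham livers (log2 fold change -2.34, SE 0.30, adjusted p = 9.01e-05). Dgat2, the last step of triglyceride synthesis, had 218, 199 and 265 TPM in the HFD-IRI livers and 583, 522 and 581 TPM in the HFD-Sham livers, and Agpat2, an earlier step, had 101, 62.4 and 92.4 TPM in HFD-IRI livers, against 226, 232 and 199.7 TPM in HFD-Sham livers. Fabp4, a fatty acid carrier of adipocytes, macrophages and endothelium, had 86, 73.4 and 53.6 TPM in the HFD-IRI livers and 5.69, 18 and 6.46 TPM in the HFD-Sham livers. Fabp4 is one of 7 adipocyte markers, whose sum was 79.33 to 189.7 TPM in HFD-IRI livers and 36.06 to 89.39 TPM in HFD-Sham livers. Of the other markers, Cfd had 59.3, 15.4 and 22.5 TPM in HFD-IRI livers, against 79.3, 21.5 and 16.4 TPM in HFD-Sham livers, Cidea had 44.4, 8.23 and 3.11 TPM in the HFD-IRI livers and 4.07, 49.6 and 13.1 TPM in the HFD-Sham livers, and neither passed. Adipoq, Plin1, Lep and Retn were at no more than 0.25 TPM in any of the 6 livers. Cidec, which fuses lipid droplets, had 216, 202 and 69.3 TPM in HFD-IRI livers, against 67, 344 and 140.3 TPM in HFD-Sham livers and did not pass (adjusted p = 0.97).

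Lipogenesis genes were lower in 5 of 20, close to the share over all genes, and higher in 1, under that share. They were lower in 2 without HFD-IRI 2, HFD-Sham 1 or HFD-Sham 2 and in 3 without HFD-IRI 3. Mlxipl, the sugar-sensing factor ChREBP, had 44.4, 30.2 and 52.3 TPM in the HFD-IRI livers and 133, 101 and 110.1 TPM in the HFD-Sham livers, and Fads2, a desaturase, had 380.4, 322 and 252 TPM in HFD-IRI livers, against 662, 910.4 and 685 TPM in HFD-Sham livers. Acly, which makes cytosolic acetyl-CoA, was the member that rose, to 99.7 ± 26.9 against 49.9 ± 9.31 TPM. Of 25 cholesterol synthesis genes 3 were lower and 0 higher, below the share over all genes. That count of falls was 6 without ND-Sham 2 and 5 without HFD-Sham 3, ND-Sham 1 or ND-Sham 3, so it was below or close to that share. Apolipoprotein and lipoprotein genes were lower in 5 and higher in 3 of 28, both under the shares over all genes, with 3 lower when HFD-Sham 1 was left out. Apob had 657, 641 and 536 TPM in the HFD-IRI livers and 1131, 1242 and 1134 TPM in the HFD-Sham livers, Lipg, endothelial lipase, had 7.32, 4.48 and 7.24 TPM in HFD-IRI livers, against 19.9, 15.7 and 23.7 TPM in HFD-Sham livers, and the cholesterol exporter Abca1 had 135, 179 and 91.2 TPM in the HFD-IRI livers and 44.6, 53.3 and 51.1 TPM in the HFD-Sham livers. The abundant Apoe and Apoa2, at -0.25 and -0.088, did not pass.

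Bile acid genes were lower in 18 of 28 and higher in 1. Nr1h4, the bile acid receptor FXR, had 63.2, 38.4 and 80.5 TPM in HFD-IRI livers, against 206, 237 and 212 TPM in HFD-Sham livers (log2 fold change -1.89, SE 0.24, adjusted p = 9.52e-05). Amacr, a racemase that bile acid synthesis needs, had 48.1, 39.2 and 53.6 TPM in the HFD-IRI livers and 154, 149 and 166 TPM in the HFD-Sham livers. Abcc2, the canalicular exporter of conjugates, had 128, 150.0 and 124 TPM in HFD-IRI livers, against 272, 319.8 and 370.3 TPM in HFD-Sham livers, and Slco1b2, an uptake carrier, had 399, 318 and 369 TPM in the HFD-IRI livers and 837, 713 and 754 TPM in the HFD-Sham livers. All of these were below the HFD-Sham range, and Cyp2c70, which makes muricholic acids, was above it with 139.8, 202 and 204 TPM in HFD-IRI livers, against 101, 124 and 102 TPM in HFD-Sham livers. Among 29 transporters 18 were lower, such as the glucose carrier Slc2a2 (-1.76) and the glycerol channel Aqp9 (-0.92), and 2 were higher, Slc10a2 (1.79) and Slco3a1 (1.24).

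Drug-metabolizing enzymes fell in part. Of 31 cytochrome P450 genes 12 were lower and 2 higher, and 7 were lower without HFD-IRI 1 or without HFD-Sham 1. Cyp1a2, which handles caffeine, had 144, 129 and 188 TPM in the HFD-IRI livers and 419, 269 and 452 TPM in the HFD-Sham livers. Cyp3a25 had 478, 485 and 658 TPM in HFD-IRI livers, against 1476, 1126 and 1092 TPM in HFD-Sham livers. Cyp2e1, an ethanol and paracetamol oxidase, had 9063, 7723 and 9682 TPM in the HFD-IRI livers and 16104, 11456 and 14961 TPM in the HFD-Sham livers (log2 fold change -0.68, SE 0.15, adjusted p = 0.00405). The groups were separate in these 3, while Cyp3a11 had 890.0, 639.9 and 605 TPM in HFD-IRI livers, against 953, 1385 and 769 TPM in HFD-Sham livers and did not pass. Conjugation enzymes were lower in 25 of 42 and higher in 3. Ugt1a6a, a glucuronosyltransferase that shares exons with its neighbours, had 0.65, 0.86 and 2.01 TPM in the HFD-IRI livers and 17.4, 11.3 and 14.9 TPM in the HFD-Sham livers, Inmt, an N-methyltransferase, had 227, 209 and 279 TPM in HFD-IRI livers, against 906, 774 and 655 TPM in HFD-Sham livers, and Nnmt, which methylates nicotinamide, had 350.0, 442 and 360.5 TPM in the HFD-IRI livers and 90.3, 26.2 and 143 TPM in the HFD-Sham livers. Nnmt was thus higher in HFD-IRI livers, as Sult1e1 was, and the other two lower. Nuclear receptors and hepatocyte factors were lower in 19 of 31 and higher in 4. Besides Nr1i3 and Nr1h4, Thrb, a thyroid hormone receptor, had 4.15, 5.63 and 3.47 TPM in HFD-IRI livers, against 14.4, 16.7 and 17.1 TPM in HFD-Sham livers. Foxa3, a pioneer factor of liver genes, had 105, 81.3 and 89.9 TPM in the HFD-IRI livers and 39.5, 25.9 and 32.3 TPM in the HFD-Sham livers. Hnf4a and Cebpa, core hepatocyte factors, did not pass (0.45 and -0.44). Hnf4a did without HFD-IRI 3 (0.74, adjusted p = 0.0392), and Cebpa with only the HFD groups fitted (adjusted p = 0.031).

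Genes of glucose production and glycogen were lower in 11 of 27 and higher in 0, and lower in 7 without HFD-IRI 2. Ppp1r3b, which brings a phosphatase to glycogen, had 14.6, 6.82 and 19.6 TPM in HFD-IRI livers, against 53.3, 40.2 and 56.3 TPM in HFD-Sham livers, Gys2, liver glycogen synthase, had 78.7, 94.8 and 132 TPM in the HFD-IRI livers and 246, 289 and 282 TPM in the HFD-Sham livers, and Gcgr, the glucagon receptor, had 146, 139.5 and 172 TPM in HFD-IRI livers, against 296, 284 and 292 TPM in HFD-Sham livers. None overlapped. Igfbp1 at 0.68 did not pass. Urea cycle and amino acid genes were lower in 18 of 37 and higher in 3. Hal, which starts histidine breakdown, had 35.4, 29.4 and 55.1 TPM in the HFD-IRI livers and 119, 86.5 and 116 TPM in the HFD-Sham livers, and Slc25a13, the aspartate carrier citrin, had 83.8, 85.3 and 77.6 TPM in HFD-IRI livers, against 196, 205 and 229 TPM in HFD-Sham livers. Got1, cytosolic aspartate aminotransferase, had 687, 692 and 747 TPM in the HFD-IRI livers and 149, 160.2 and 293 TPM in the HFD-Sham livers (log2 fold change 1.88, SE 0.28, adjusted p = 0.000282), the reverse direction. All 3 were separate between the groups. In the respiratory chain 8 of 48 nuclear-coded subunits were lower and 1 higher, which is under the share over all genes. Ndufs1 fell to 26.3 ± 0.903 against 39.7 ± 2.54 TPM and Cycs, cytochrome c, rose to 124 ± 20.1 against 76.3 ± 7.90 TPM. Of 35 proteasome genes 3 rose and 1 fell, also under the shares over all genes.

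Clock genes went both ways, 8 of 23 higher and 7 lower. Cry1, a repressor, had 24.9, 18.3 and 38.4 TPM in HFD-IRI livers, against 4.33, 7.33 and 5.90 TPM in HFD-Sham livers, like Nfil3 above the HFD-Sham range. Usp2, a deubiquitinase with a strong daily rhythm, had 1.63, 1.63 and 3.34 TPM in the HFD-IRI livers and 17.8, 18.5 and 23.1 TPM in the HFD-Sham livers, like Hlf below it. Nr1d1, which encodes REV-ERBalpha, had 109, 132 and 153 TPM in HFD-IRI livers, against 92.7, 41.5 and 35 TPM in HFD-Sham livers and did not pass. Nr1d1 did pass with only the HFD groups fitted (adjusted p = 0.0123), without ND-IRI 1 (0.0104), without both first ND libraries (0.00972) and with sample weights (0.0322). No source used here gives the hour at which livers were taken, and its part in these values was not tested.

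Markers of other cell types differed between HFD-IRI and HFD-Sham livers. Their counts too are to be read against the 24.0% higher and 21.9% lower over all tested genes. Of 16 neutrophil markers, 13 passed the filter and 11 of them rose. Among the 11, Ly6g, Mmp8, Il1r2, Cxcr2 and Stfa2l1 were under 1 TPM in every sham library of both diets. They passed the filter only through injured livers, so a rise was the call open to them. S100a8, a calprotectin subunit, had 56.6, 46.4 and 113 TPM in the HFD-IRI livers and 3.80, 2.70 and 1.65 TPM in the HFD-Sham livers. S100a9, its partner, had 115, 103 and 282 TPM in HFD-IRI livers, against 7.28, 7.19 and 3.00 TPM in HFD-Sham livers. Retnlg, a resistin-like protein, had 21.6, 19.4 and 52.2 TPM in the HFD-IRI livers and 0.89, 0.50 and 0.18 TPM in the HFD-Sham livers. HFD-IRI 3 was the highest library for all 3, at more than the level of either other HFD-IRI liver, and the HFD-Sham livers were all under 8 TPM. The summed list was 728.6 to 1196 TPM in HFD-IRI livers and 410.2 to 812.6 TPM in HFD-Sham livers, and most of that sum was Wfdc21, which did not pass. Hdc was the marker that fell. The granule transcripts Camp, Ltf and Padi4 were under 1 TPM in every HFD liver. Cxcr2, Csf3r, Il1r2 and Mmp8 of the lists above are also neutrophil markers, and the number of neutrophils was not measured, so its part in their rise was not tested.

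The erythroid list, 7 markers of which 5 were tested, summed to 655.4 to 2301 TPM in HFD-IRI livers and 73.88 to 123.3 TPM in HFD-Sham livers. Hbb-bs, an adult beta globin, had 1269, 349.9 and 949 TPM in HFD-IRI livers, against 29.4, 35.8 and 12.2 TPM in HFD-Sham livers, and Hba-a1, an alpha globin, had 736, 206 and 577 TPM in the HFD-IRI livers and 21.1, 19.5 and 7.19 TPM in the HFD-Sham livers. HFD-IRI 2 was the lowest of the HFD-IRI livers for both and still above every HFD-Sham liver. The globin genes have near-identical copies that can share reads. Alas2, the erythroid heme enzyme, had 71.6, 47.4 and 63.5 TPM in HFD-IRI livers, against 59.8, 60.6 and 52.6 TPM in HFD-Sham livers, and the red cell membrane gene Slc4a1 was at or under 1.27 TPM. The amount of blood in each sample was not measured, and its part in other results was not tested.

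Among 7 tested cholangiocyte markers 6 rose. Sox9, also a marker of hepatocytes that take on ductal traits, had 28.6, 24.1 and 15.7 TPM in the HFD-IRI livers and 2.17, 3.63 and 2.37 TPM in the HFD-Sham livers, and Spp1, osteopontin, had 836, 1103 and 357 TPM in HFD-IRI livers, against 169, 396 and 96.9 TPM in HFD-Sham livers with overlap between the groups. Spp1 lost its call without HFD-IRI 1, HFD-IRI 2, HFD-Sham 1 or HFD-Sham 3 (adjusted p = 0.0571 to 0.0869). Of 8 Kupffer cell markers 3 fell and 1 rose: Cd5l had 24.9, 47.3 and 72.6 TPM in the HFD-IRI livers and 156, 121 and 79.4 TPM in the HFD-Sham livers, Vsig4 had 11.5, 14.2 and 18.7 TPM in HFD-IRI livers, against 38.1, 28 and 22.9 TPM in HFD-Sham livers, and Clec4f, the most specific of them, had 23.3, 41.8 and 60.3 TPM in the HFD-IRI livers and 89.5, 54.2 and 68.4 TPM in the HFD-Sham livers and did not pass, though it did without HFD-IRI 3, HFD-Sham 2 or ND-IRI 1 (adjusted p = 0.0115 to 0.043). Vsig4 lost its call without HFD-Sham 1 (adjusted p = 0.0527). HFD-IRI 1 had the lowest Cd5l, Vsig4 and Clec4f of the 6 libraries. Cdh5, on that list but better known from endothelium, was the one that rose. Endothelial markers were also split: Lyve1 had 77.8, 74.1 and 84.9 TPM in HFD-IRI livers, against 17.1, 12.5 and 14.8 TPM in HFD-Sham livers, Pecam1 had 12.9, 13.7 and 19.1 TPM in the HFD-IRI livers and 7.63, 4.41 and 5.98 TPM in the HFD-Sham livers, and Kdr had 3.61, 2.59 and 2.37 TPM in HFD-IRI livers, against 12.1, 6.51 and 8.60 TPM in HFD-Sham livers. Lyve1 and Pecam1 were higher and Kdr lower without overlap, and Stab2 and Clec4g did not pass. Of 12 monocyte markers 5 rose, among them Chil3 with 11.8, 16 and 31.5 TPM in the HFD-IRI livers and 1.16, 1.45 and 0.38 TPM in the HFD-Sham livers, and 1 fell. Of the 5, Vcan and Itgam were under 1 TPM in every sham library of both diets, so a rise was the call open to them. The same holds where Itgam, Cxcr2, Il1r2 and Mmp8 were counted in the lists by function. Of 8 stellate cell markers 3 fell and none rose. T and NK cell markers summed to 4.94 to 8.56 TPM in HFD-IRI livers and 7.15 to 10.22 TPM in HFD-Sham livers, and B and plasma cell markers to 5.51 to 7.3 TPM and 7.52 to 15.42 TPM in the same groups. The mesothelial marker Msln varied within groups, with 19.5, 11.5 and 0.22 TPM in HFD-IRI livers, against 0.24, 1.19 and 4.94 TPM in HFD-Sham livers, and passed without HFD-IRI 3 (2.67, adjusted p = 0.0441). The list of exocrine pancreas and gut markers summed to 307.6 to 367.7 TPM in HFD-IRI livers and 384.0 to 484.2 TPM in HFD-Sham livers, nearly all of it the fatty acid binding protein gene Fabp2. Fabp2 and Cela1 did not pass, and Prss2, Cpa1 and Reg3g were at 0 in all 6 livers.

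**Figure D4:**
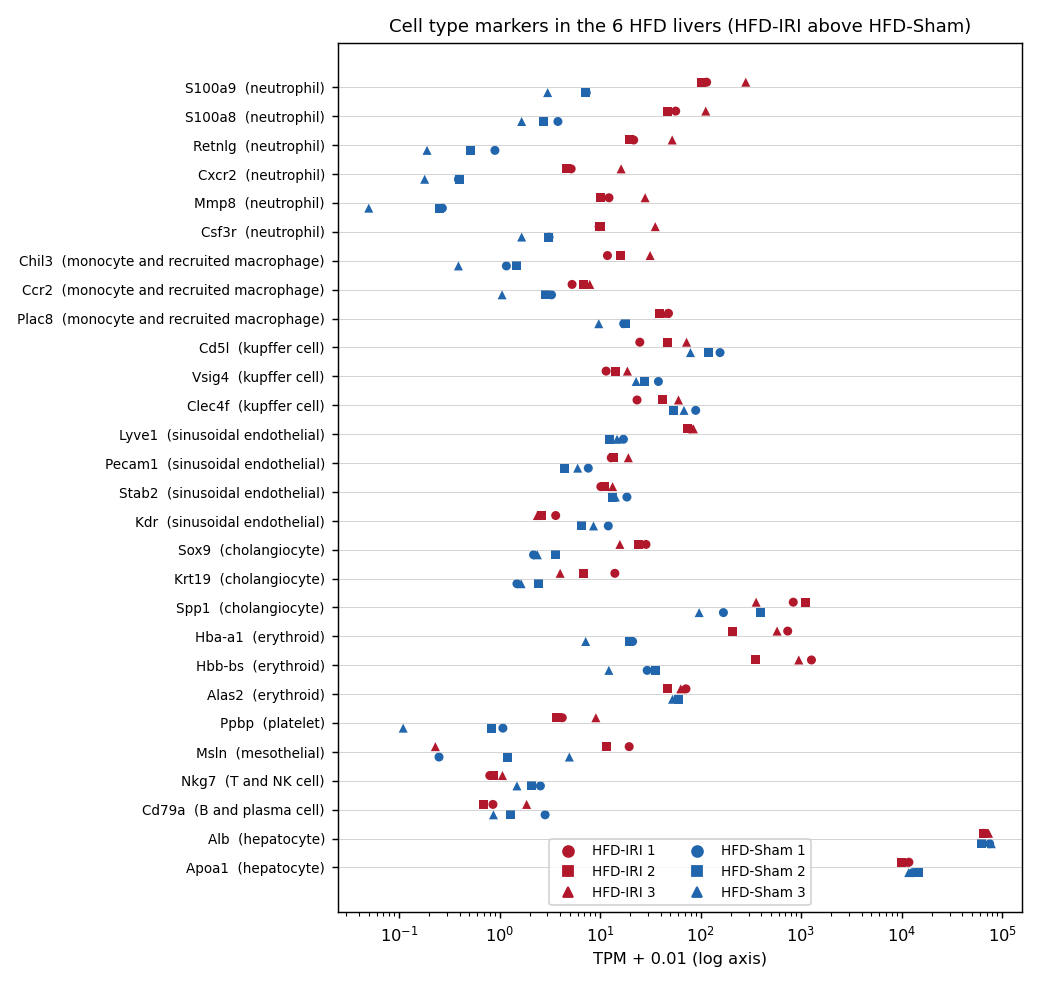
TPM of cell type markers in each HFD library on a log axis, the HFD-IRI livers drawn above the HFD-Sham livers of the same gene, one symbol per library (TPM + 0.01). The neutrophil transcripts shown and both globins are higher in every HFD-IRI liver than in any HFD-Sham liver, and Cd5l and Vsig4 of Kupffer cells are lower.

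The same operation on the normal diet was set beside these changes. ND-IRI against ND-Sham called 6248 genes, 30.2% of those tested higher and 16.6% lower; this split depends on scaling, since median-ratio scaling, which shifted the median of all genes by -0.1767, gave 3477 higher and 3269 lower, and quantile normalization 3180 and 3860. The libraries ND-IRI 1 and ND-Sham 1 stood apart from the others of their groups, and ND-Sham 1 held adipocyte transcripts. That library also held more B and plasma cell transcripts. Jchain had 73.8, 1.97 and 4.96 TPM and Cd79a 18.3, 2.29 and 1.89 TPM in ND-Sham 1, 2 and 3. Of the genes called on the HFD, 4601 were called in the same direction on the ND, which is 74.96% of the HFD calls and 73.64% of the ND calls. Another 14 were called in opposite directions, and 1523 were called on the HFD alone. A call in one diet and not in the other does not show that the effects differ, and of those 1523 genes 2 passed the test of the difference itself.

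That test, the HFD effect minus the ND effect in the same fit, called 13 genes, 6 of them with a higher (0.0449% of those tested) and 7 with a lower effect on the HFD (0.0524%). At an unadjusted p under 0.05 there were 1345. The count moved with single libraries: leaving out a single library gave 1 to 73, without ND-IRI 2 the count was 1, without HFD-IRI 3, ND-IRI 3 or ND-Sham 3 it was 2, and without both first ND libraries it was 326. Without ND-IRI 1 it was 73, without HFD-Sham 3 it was 27 and without ND-Sham 2 it was 6, while leaving out HFD-IRI 1, HFD-IRI 2 or HFD-Sham 2 gave 8. Of the genes described next, Cyp4a10 passed under all 22 alternatives tried (adjusted p up to 0.00576), and the other 10 each lost their call under 3 to 13 of those alternatives, with adjusted p up to 0.164 in Cyb5b. Cux2 was tested in 17 of the 22 alternatives and Cyp2e1 in 21, being left out of the others.

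Cyp4a10 and Cyp4a14, omega-hydroxylases of fatty acids and targets of PPARalpha that can share reads, had the largest positive differences. On the HFD, Cyp4a10 had 1301, 1208 and 1425 TPM in the HFD-IRI livers and 1819.8, 1358 and 2061 TPM in the HFD-Sham livers and did not pass. On the ND it had 151, 93.6 and 149.7 TPM in ND-IRI livers, against 1832, 2225 and 2595 TPM in ND-Sham livers (difference 3.69, SE 0.29, adjusted p = 0.000379). Cyp4a14 had 1612, 1816 and 2258 TPM in HFD-IRI livers, against 3005, 2254 and 5338 TPM in HFD-Sham livers, and on the ND 234, 112 and 155 TPM in ND-IRI livers, against 2645, 2949.8 and 5458 TPM in ND-Sham livers (difference 3.63, SE 0.50, adjusted p = 0.0219). In both genes the ND-IRI livers were far below the ND-Sham livers, whereas the HFD-IRI levels stayed above those of every ND-IRI liver. The fall of Cyp4a14 on the HFD passed without HFD-Sham 2 (-1.09, adjusted p = 0.0363). Cyp2e1 fell on both diets and by less on the HFD (difference 1.56, SE 0.22, adjusted p = 0.0219), with 2719, 2164 and 2531 TPM in ND-IRI livers, against 12298, 10923 and 11677 TPM in ND-Sham livers. The P450 gene Cyp2c38 (difference 1.35, SE 0.19, adjusted p = 0.0245), the mitochondrial dehydrogenase gene Hsd17b10 (difference 1.19, SE 0.19, adjusted p = 0.0404) and the homeobox gene Cux2 (difference 2.38, SE 0.31, adjusted p = 0.0166) did not pass on the HFD and were lower on the ND. Among PPARalpha targets as a list, 15 of 32 fell on the HFD, and the difference was called for the 2 Cyp4a genes named here.

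Differences of the opposite sign belonged to genes whose effect was lower on the HFD than on the ND. Osbpl3, an oxysterol-binding protein linked to lipid droplets, had 3.13, 2.77 and 2.22 TPM in the HFD-IRI livers and 18.5, 43.5 and 15.1 TPM in the HFD-Sham livers, and on the ND 1.07, 1.16 and 1.02 TPM in ND-IRI livers, against 1.22, 1.19 and 1.23 TPM in ND-Sham livers (difference -2.62, SE 0.42, adjusted p = 0.0404). Cyb5b, an outer mitochondrial cytochrome b5, had 158, 136 and 118 TPM in HFD-IRI livers, against 309.6, 286 and 277 TPM in HFD-Sham livers, and on the ND 159, 158 and 155 TPM in ND-IRI livers, against 163, 171 and 149 TPM in ND-Sham livers (difference -1.06, SE 0.16, adjusted p = 0.0394). Both fell on the HFD without overlap, while their ND effects were -0.088 and -0.030. Osbpl3 was at only 1.19 to 1.23 TPM in ND-Sham livers. On the log2(TPM + 1) scale no fall as large as that on the HFD (-2.70) was open to it there. Col27a1, a fibrillar collagen, and Nat8f5, an acetyltransferase-like gene, were the 2 genes called in opposite directions on the diets and also for the difference. Col27a1 had 3.89, 3.30 and 3.53 TPM in the HFD-IRI livers and 12.2, 14 and 8.67 TPM in the HFD-Sham livers, and on the ND 8.95, 14 and 11.9 TPM in ND-IRI livers, against 5.60, 7.89 and 5.88 TPM in ND-Sham livers (difference -2.19, SE 0.29, adjusted p = 0.0166). Nat8f5 had 8.07, 2.84 and 5.38 TPM in HFD-IRI livers, against 11.7, 24.9 and 15.6 TPM in HFD-Sham livers, and on the ND 24.5, 38.4 and 42 TPM in ND-IRI livers, against 10.9, 10.4 and 4.40 TPM in ND-Sham livers (difference -3.50, SE 0.54, adjusted p = 0.0394). Serpina7, thyroxine-binding globulin, had 158, 184 and 132 TPM in the HFD-IRI livers and 161, 237 and 148 TPM in the HFD-Sham livers and did not pass on the HFD, with 208, 240.3 and 135 TPM in ND-IRI livers, against 37.3, 17.7 and 25.9 TPM in ND-Sham livers (difference -3.01, SE 0.40, adjusted p = 0.0166).

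**Figure D5:**
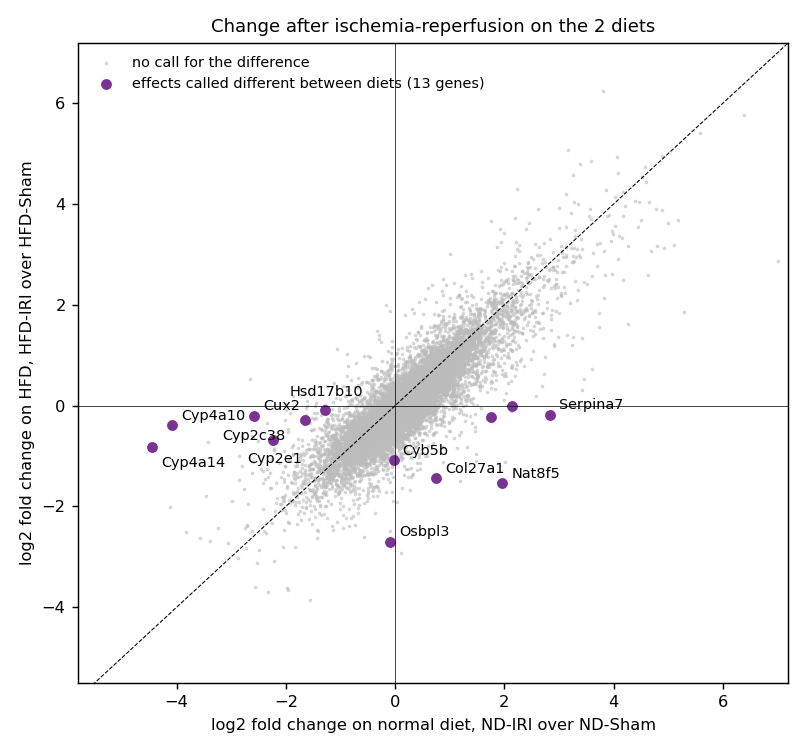
Log2 fold change of each of the 13364 tested genes after IRI on the ND (x axis, ND-IRI over ND-Sham) and on the HFD (y axis, HFD-IRI over HFD-Sham), with the 13 genes called for the difference as large points and the line of equal effects dashed. Most genes lie along that line, and Cyp4a10 lies at -0.40 on the y axis and -4.08 on the x axis.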

How the data were processed

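RNA of whole liver was measured in 12 libraries, 3 each of HFD-IRI, HFD-Sham, ND-IRI and ND-Sham. Per the labels' protocols, total RNA was extracted with Trizol, poly(A) RNA was selected with oligo(dT) and libraries were stranded with dUTP. The authors deposited gene-level TPM with the same total in each column. TPM are relative values, so a few very abundant genes can shift all others. The genome build was GRCm39 (mm39) per the submitters' processing notes. The aligner, the counting tool and the annotation are not given in the sources used here. A further 23 sample columns that no label matched were not used.

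Genes reaching 1 TPM in 3 or more of the 12 libraries were tested on log2(TPM + 1) with limma 3.58.1 in R 4.3.3 (group means of all 4 groups, empirical Bayes with a trend, two-sided, Benjamini-Hochberg over all tested genes), in a fit checked on simulated data. A gene under 1 TPM in every sham library could thus be tested only where injured livers carried it past the filter. Tables, principal components and plots were made with Python 3.11.15, pandas 2.3.3, scipy 1.17.1 and matplotlib 3.10.9. The members and lists were chosen with earlier results of these data known, so no list was tested.

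Named genes are the 15 largest rises and falls with at least 5 TPM and no overlap, up to 4 called members of each list in its main direction, 2 in the other and 2 that did not pass, up to 8 differences each way between the diets, and Hmox1, Cidec, Alb and Sult1e1. Predicted genes were left out, and the text leaves out some genes where lists overlap and a few that are not reported here. Cell type markers came from their own lists. Genes outside the rule were chosen after their values were seen.

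Alternatives were another pseudocount (0.1), filters (5 TPM, or none), median-ratio, quantile and re-closed scaling (without the 50 most abundant genes and the mitochondrially encoded genes), no variance trend, only the groups compared, sample weights, a limit of 1 on the size of the log2 fold change, the replicate number as a block, and leaving out each library or both first ND libraries. The iteration for the sample weights stopped before it converged. Promoter letters are RefSeq windows of build GRCm38.p6, and 963 of the 1240 tested list genes had one.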

Additional observations from a re-analysis of the deposited data

Results flagged for a closer look

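For 11 named genes the effect of IRI differed between the HFD and the ND in the test of the difference itself (limma, HFD effect minus ND effect, log2). The effect was higher on the HFD for Cyp4a10 (difference 3.69, adjusted p = 0.000379), Cyp4a14 (3.63, adjusted p = 0.0219), Cux2 (2.38, adjusted p = 0.0166), Cyp2e1 (1.56, adjusted p = 0.0219), Cyp2c38 (1.35, adjusted p = 0.0245) and Hsd17b10 (1.19, adjusted p = 0.0404). It was lower on the HFD for Nat8f5 (-3.50, adjusted p = 0.0394), Serpina7 (-3.01, adjusted p = 0.0166), Osbpl3 (-2.62, adjusted p = 0.0404), Col27a1 (-2.19, adjusted p = 0.0166) and Cyb5b (-1.06, adjusted p = 0.0394). Of the 5 genes with a lower effect, Nat8f5, Osbpl3, Col27a1 and Cyb5b fell on the HFD, while Serpina7 did not pass there. Osbpl3 was near 1 TPM in ND-Sham livers, which left little room for a fall on the ND.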

How the results depend on the processing

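The 6138 calls of HFD-IRI against HFD-Sham stayed within 1.5 times of that count under every alternative but a log2 fold change of at least 1, which left 2327 (1458 higher and 869 lower). Leaving out 1 library gave 4913 to 6588, leaving out both first ND libraries 7128, and fitting only the HFD groups 6425. For ND-IRI against ND-Sham the fold limit left 2523 of 6248. The 13 calls for the difference became 21 with no filter, 25 with a pseudocount of 0.1, 21 with quantile normalization, 20 with re-closed TPM, 4380 with sample weights and 326 without both first ND libraries, and 1 to 73 when 1 library was left out. The cause was not tested. Under median-ratio scaling the median difference over all genes moved by 0.1599. Replicate numbers are shared between groups by name only. Deviations of same-numbered HFD-IRI and HFD-Sham livers correlated at -0.1309, 0.002857 and -0.08078 across genes. With the replicate block the HFD comparison called 5762 genes, the ND comparison 5879 and the difference 9.

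Of the 212 called genes named in the HFD comparison, 209 kept direction and call under every alternative that tested them, the fold limit aside. A further 3 lost the call under at least 1 of these and none reversed. The fold limit was not applied to single genes here. It would take the call from each named gene that changed by less than 1. Many of these genes were named for a small adjusted p or for lack of overlap, which favours stable calls. Of 39 named genes that did not pass, 19 passed under at least 1 alternative, 14 of them with 1 library left out. The counts of named genes leave out those named only for a promoter motif, for the filter or for ND-Sham 1. Among these 39, Alb was at 0 with quantile normalization, and values of opposite sign were found for Alas2 (-0.019 with quantile normalization, -0.068 to 0.23 with 1 library left out), Cidec (0.48 with sample weights, -0.60 to 0.57 with 1 left out), Cfd (0.54 with sample weights, -0.69 to 0.53 with 1 left out), Cidea (1.25 with sample weights, -1.32 to 0.50 with 1 left out), Hsd17b10 (0.0094 with quantile normalization, -0.18 to 0.057), Serpina7 (-0.32 to 0.021) and Wfdc21 (-0.21 to 0.38). List counts stayed within 1.5 times in 1129 of 1200 cases. In 11 cases the opposite direction then had more calls. Under the fold limit these were the falls of heme and iron (3), complement and coagulation (2), ketone body (1) and apolipoprotein genes (2) and the rises of clock genes (2). The rises of clock genes were 7 without HFD-Sham 1, and those of interferon genes were 6 with quantile normalization, 7 with sample weights, and 4 without HFD-IRI 3 or HFD-Sham 2. Those of growth hormone genes were 3 to 5 with 1 library left out. Respiratory chain falls, 8 in the report, were 4 with median-ratio scaling and 18 with sample weights. Medians of the clock, proteasome and autophagy lists changed sign with scaling. TPM carry no depth, so how far low genes limit these calls is unknown.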

Other observations

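Hepatokines and growth factors of the liver changed in both directions, with 9 of 25 tested members higher and 5 lower, against 24.0% and 21.9% of all tested genes. Inhbb and Inhba, subunits of activins, and Hgf, the hepatocyte growth factor, were higher. Inhbb had 52.4, 54.2 and 61.8 TPM in HFD-IRI livers, against 4.24, 3.64 and 8.83 TPM in HFD-Sham livers (log2 fold change 3.20, SE 0.39, adjusted p = 7.06e-05). Inhba had 17.7, 12.6 and 24.9 TPM in the HFD-IRI livers and 2.86, 2.44 and 1.29 TPM in the HFD-Sham livers. Hgf had 15.1, 15.9 and 14.2 TPM in HFD-IRI livers, against 3.95, 4.62 and 5.55 TPM in HFD-Sham livers. The groups did not overlap for these 3 genes. Inhbc, a subunit made by hepatocytes like Inhbe, had 30.2, 20.6 and 26.5 TPM in the HFD-IRI livers and 97.8, 74.9 and 98.4 TPM in the HFD-Sham livers and fell, so activin subunit genes moved in opposite directions. In the growth hormone and urinary protein list 4 of 27 were higher and 3 lower, both under the shares of all tested genes. Jak2, the kinase of the growth hormone receptor, had 34.4, 37.9 and 45.2 TPM in HFD-IRI livers, against 12.8, 11.8 and 9.58 TPM in HFD-Sham livers, whereas the receptor gene Ghr had 86.8, 79.2 and 85.3 TPM in the HFD-IRI livers and 171, 156 and 170.4 TPM in the HFD-Sham livers and Igfals, which stabilizes circulating IGF1, had 18.9, 13.2 and 18.3 TPM in HFD-IRI livers, against 63.4, 37 and 65.2 TPM in HFD-Sham livers. These 3 were separate between the groups.

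Of 31 tested autophagy genes 8 were higher and 8 lower, close to the shares of 24.0% and 21.9% over all tested genes. Without HFD-IRI 2, HFD-Sham 1 or HFD-Sham 2, 5 were higher. Besides Sqstm1, Atg12, a ubiquitin-like conjugate of the early steps, had 39.9, 38.6 and 29.8 TPM in the HFD-IRI livers and 12.6, 17.1 and 14.6 TPM in the HFD-Sham livers. Ctsl, a lysosomal protease, had 604, 679 and 749.9 TPM in HFD-IRI livers, against 324, 355 and 302 TPM in HFD-Sham livers. Atg7, the enzyme that activates Atg12, had 16.4, 18 and 13.8 TPM in the HFD-IRI livers and 27, 28.6 and 25.6 TPM in the HFD-Sham livers, and the receptor gene Optn had 42.1, 43.2 and 53.8 TPM in HFD-IRI livers, against 110.1, 119 and 114 TPM in HFD-Sham livers. Atg12 and Atg7, which act in the same conjugation step, were thus changed in opposite directions without overlap.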
